A study of Mus musculus with 30 samples.

Results

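Livers of mice carrying an osmotic pump filled with ACBP, the acyl-CoA-binding protein encoded by the gene Dbi, were compared with livers of mice whose pump held phosphate-buffered saline (PBS), pooled over mice with and without restraint. The ACBP arm held 5 libraries labelled Rec-ACBP and 5 labelled Rec-ACBP+CRS, and the PBS arm held 5 labelled PBS and 5 labelled CRS. These 20 of the 30 libraries in the series were chosen by their treatment label, and the 10 libraries of mice given cisplatin (Rec-ACBP+CDDP and CDDP) were left out of the fit. All mice were wild-type female C57BL/6 J mice, 8 weeks old when the pump was placed, and all carried a pump. The ACBP solution was at 2.5 mg/mL. In the Rec-ACBP+CRS and CRS groups anorexia was induced by CRS 48 hours after the pump was placed, and in the Rec-ACBP+CDDP and CDDP groups by CDDP (cisplatin) after 72 hours. The labels do not spell out CRS, which is taken to mean restraint stress. Food intake was not analysed here.

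ACBP binds acyl-CoA esters inside cells and is abundant in hepatocytes. It can also leave cells during autophagy and act outside them, where it modulates GABA-A receptors; in mice, raised circulating ACBP is known to increase feeding and to shift hepatic metabolism toward lipid storage. An osmotic pump releases its content slowly under the skin or in the abdomen, so the protein reaches the liver through the circulation and the liver's own Dbi mRNA is no measure of the delivered dose.

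The 20 libraries held 13957400 to 17245900 reads on genes, and the arms' depths differed by less than their spread (16280000 ± 728234 in the ACBP arm and 16196000 ± 980133 in the PBS arm, SD, n = 10 each; exact permutation test within restraint strata, 2-sided p = 0.844, adjusted p = 0.844 over 6 read measures). Levels are CPM, read counts scaled to each library's total on genes after TMM adjustment. Hepatocyte transcripts dominated every library, with a summed level of the 12 hepatocyte identity genes of 81460 to 109508 CPM in the ACBP arm and 72998 to 116431 CPM in the PBS arm. Transcripts of skeletal muscle varied widely, from 27.6 to 2727 CPM summed over 21 genes in the ACBP arm and from 18.9 to 12435 CPM in the PBS arm. Brain and nerve transcripts reached 164 CPM in 1 Rec-ACBP library, against at most 26.8 CPM in the PBS arm. Results are therefore also given without 6 libraries that stood out for these transcripts (2 Rec-ACBP, 2 Rec-ACBP+CRS, 1 PBS and 1 CRS). The libraries kept are not free of muscle transcripts, which reached 926 CPM in CRS replicate 4. Whether the libraries stem from separate mice is not stated, and p-values measure the spread between libraries, which may be technical.

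No single gene passed the test for the ACBP pump. With restraint as a covariate and no interaction term, 0 of 15762 genes (0%) reached a Benjamini-Hochberg adjusted p under 0.05 in edgeR's quasi-likelihood test, and the smallest adjusted p was 0.202. Small unadjusted p-values were nevertheless frequent: 1798 genes (11.4%) had an unadjusted p under 0.05, where an even spread of p-values would give 5%. Of these, 885 (5.61% of the genes tested) were higher and 913 (5.79%) lower with ACBP. The log2 fold changes were balanced, with 7924 genes higher, 7838 lower and a median of 0.0014. DESeq2, run on the same 20 libraries, called 76 genes (40 higher and 36 lower), and limma voom with library quality weights called 0. Every value pooled over restraint below is therefore a measurement that missed the adjusted threshold in edgeR.

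**Figure D1:**
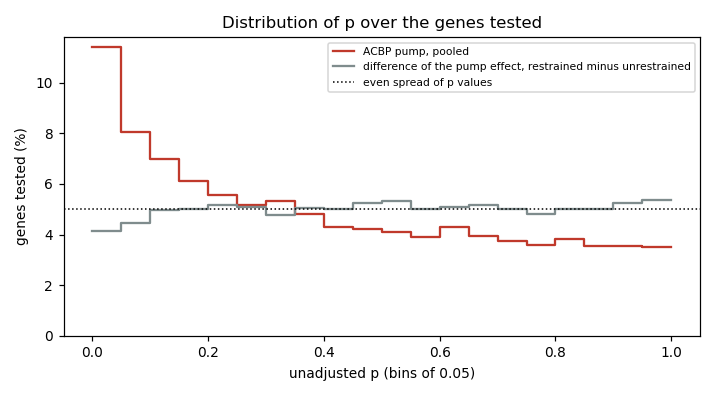
Share of the genes tested (y axis, percent) in each bin of unadjusted p (x axis, bins of 0.05) for the pooled ACBP pump effect and for the difference of the pump effect between restrained and unrestrained mice; the dotted line is an even spread. The pooled effect put 11.4% of the genes in the lowest bin and the difference put 4.16% there.

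Dbi itself was at similar mRNA levels in both arms. It had 661, 679, 479, 597 and 767 CPM in Rec-ACBP livers and 522, 537, 755, 709 and 566 CPM in PBS livers. In restrained mice it had 1027, 719, 773, 780 and 534 CPM in Rec-ACBP+CRS livers and 611, 710, 835, 329 and 628 CPM in CRS livers. The arms overlapped over nearly their whole range, and the pooled log2 fold change was 0.17 ± 0.14 (approximate SE; edgeR adjusted p = 0.647). Of the other proteins with an acyl-CoA-binding domain, Acbd6 averaged 43.8 ± 5.06 CPM with ACBP and 37.5 ± 4.49 CPM with PBS (SD, n = 10 each; log2 fold change 0.22, edgeR adjusted p = 0.318). Acbd5, which tethers peroxisomes to the endoplasmic reticulum, averaged 166 ± 34.1 and 143 ± 14.2 CPM in the ACBP and PBS arms (0.21, edgeR adjusted p = 0.424). Without the 6 muscle-rich or brain-rich libraries these log2 fold changes were 0.17 for Acbd6 and 0.06 for Acbd5. Of the 6 tested genes of the family, 5 were higher with ACBP. Of the 6, 2 (33.3%) were higher at an unadjusted p under 0.05, beside 5.61% over all genes in that direction. That count was 1 to 2 with 1 library left out and 0 without the 6 muscle-rich or brain-rich libraries. Only 4 of 17 listed GABA-A receptor subunit and translocator genes were expressed enough to test; among them Tspo, the mitochondrial translocator that binds ACBP, averaged 74.7 CPM with ACBP and 68.8 CPM with PBS (log2 fold change 0.14, edgeR adjusted p = 0.668).

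The 10 higher and 10 lower genes with the smallest p-values are described first, and all but Klrg2 differed by less than 1 on the log2 scale. Apol9a (chromosome 15, 77403789 to 77411135, mm10), an apolipoprotein L family gene with a near-identical neighbour, had the smallest p of all named genes. It stood at 108, 117, 131, 122 and 101 CPM in Rec-ACBP livers, against 72.2, 74.0, 72.5, 93.7 and 79.8 CPM in PBS livers. Under restraint it stood at 105, 129, 99.2, 114 and 101 CPM in Rec-ACBP+CRS livers, against 97.4, 86.7, 79.3, 99.5 and 92.0 CPM in CRS livers. The ranges overlapped only through 1 CRS library, and the pooled log2 fold change was 0.42 ± 0.08 (edgeR adjusted p = 0.202). Reads of Apol9a may be split with its copy.

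Pgrmc2 (chromosome 3, 41066326 to 41083046), a membrane protein that carries haem, was the only gene of 15762 (0.00634%) whose libraries did not overlap between the arms. Its lowest, median and highest levels were 46.9, 53.6 and 67.7 CPM with ACBP and 30.8, 42.7 and 45.9 CPM with PBS (log2 fold change 0.38 ± 0.08, edgeR adjusted p = 0.202). Mup20 (chromosome 4, 62050234 to 62054158), the male urinary pheromone darcin and a member of a multigene family, reached 23.6, 38.6 and 87.2 CPM with ACBP and 16.2, 24.3 and 35.6 CPM with PBS. All 10 ACBP libraries lay above the mean of the PBS-pump mice of their own stratum for Pgrmc2 and for Mup20. The same held for Srd5a1, the steroid 5-alpha-reductase, which averaged 47.6 ± 19.6 CPM with ACBP and 31.6 ± 16.4 CPM with PBS (log2 fold change 0.66, edgeR adjusted p = 0.202). It also held for Apol9a, Erc2, Tmed3, Ppp2r4, Tcea1 and C9, and for Ly6e in 9 of the 10 libraries. These genes were chosen by small p-values in the same libraries, so this position is no independent support. Its share over all genes was not counted.

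The other 6 genes at the top of the higher side had log2 fold changes of 0.33 to 0.64. Tmed3, a cargo receptor of vesicles between the endoplasmic reticulum and the Golgi, averaged 21.4 ± 7.95 CPM with ACBP and 13.9 ± 5.15 CPM with PBS. C9, the last component of the complement pore, averaged 176 ± 33.9 and 125 ± 37.6 CPM in the ACBP and PBS arms. Ly6e, an interferon-inducible surface protein, averaged 207 ± 39.5 CPM with ACBP and 152 ± 27.1 CPM with PBS. Ppp2r4, an activator of protein phosphatase 2A, Tcea1, a transcription elongation factor, and Erc2, a scaffold protein best known from synapses, completed this side, with log2 fold changes of 0.33, 0.37 and 0.39.

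On the lower side, Klrg2, a lectin-like receptor gene, had the smallest p at a very low level. It stood at 0.12, 0.511 and 0.834 CPM (lowest, median, highest) with ACBP and 0.34, 1.32 and 2.86 CPM with PBS, and the arms overlapped through 1 CRS library at 0.34 CPM (log2 fold change -1.59 ± 0.32, edgeR adjusted p = 0.202). Bmf, which promotes apoptosis by binding BCL2 proteins, averaged 11.6 ± 3.02 CPM with ACBP and 20.02 ± 5.60 CPM with PBS (-0.80). Med1, the Mediator subunit through which nuclear receptors contact the transcription machinery, held between 19.98 and 23.02 CPM in all 10 ACBP libraries and between 21.5 and 31.6 CPM in the PBS arm (-0.31 ± 0.07). Pias3, an inhibitor of STAT3, averaged 11.4 CPM with ACBP and 16.04 CPM with PBS, and Map3k6, a stress-activated kinase, averaged 2.48 CPM with ACBP and 4.58 CPM with PBS. The remaining 5 were Tango2, Cep152 of the centriole, the tRNA-modifying subunit Qtrtd1, the stress-granule protein Tia1 and the retinol dehydrogenase Rdh13, with log2 fold changes of -0.42, -0.59, -0.50, -0.41 and -0.53. All 20 genes had adjusted p-values of 0.202 or more. Erc2, Tcea1, Srd5a1, Pias3, Med1 and Qtrtd1 overlap a gene on the other strand, and the strand setting of the counting is not given in the sources used here, so their reads may be shared with that gene. DESeq2 gave an adjusted p to 11 of the 21 named genes and called 10 of them: Apol9a, Mup20, Pgrmc2, Srd5a1, C9, Ly6e, Ppp2r4 and Tcea1 as higher, and Med1 and Tango2 as lower.

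**Figure D2:**
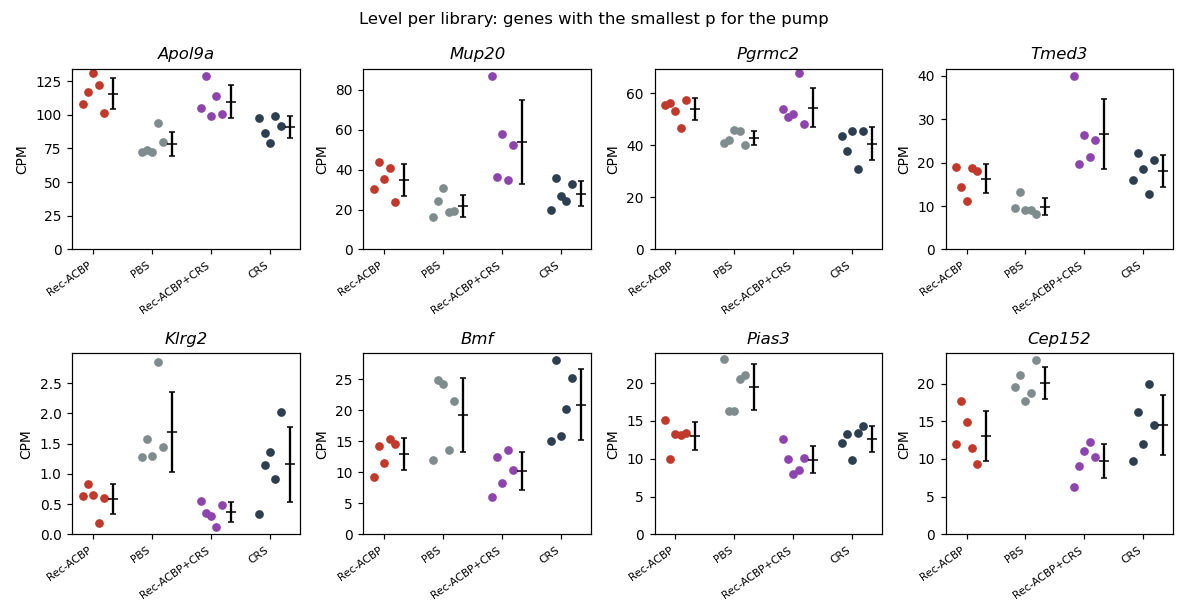
CPM per library (points, linear axes from 0) of 8 of the genes with the smallest p-values, by group, with the mean and SD of the 5 libraries beside each group. In the upper row the Rec-ACBP and Rec-ACBP+CRS libraries lie mostly above PBS and CRS, and in the lower row mostly below; for Pgrmc2 the lowest ACBP library is at 46.9 CPM and the highest PBS-pump library at 45.9 CPM.

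The genes of the unfolded protein response all lay on the same side. This response is switched on when proteins misfold in the endoplasmic reticulum; the sensors ATF6 and IRE1, acting through XBP1, turn on chaperones, disulfide isomerases and degradation factors of that compartment. All 22 listed genes were higher with ACBP, 11 of them (50%) at an unadjusted p under 0.05 where 5.61% of all genes were that and higher, and their median log2 fold change was 0.32, beside 0.0014 over all genes tested. None passed the adjusted threshold. The list was written with earlier results of these data known, so its direction is a description.

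Hspa5 encodes BiP, the main chaperone of the endoplasmic reticulum and the classic target of this response. It stood at 307, 245, 190, 244 and 312 CPM in Rec-ACBP livers, against 174, 214, 144, 172 and 123 CPM in PBS livers. In restrained mice it stood at 903, 238, 401, 242 and 360 CPM in Rec-ACBP+CRS livers, against 180, 333, 392.2, 196 and 240 CPM in CRS livers. The unrestrained groups overlapped through 1 library on each side, the restrained groups overlapped broadly, and Rec-ACBP+CRS replicate 1 was far above the rest. The pooled log2 fold change was 0.66 ± 0.21 (edgeR adjusted p = 0.301), and without that library it was 0.45.

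Creld2, a disulfide isomerase-like chaperone partner, had the smallest p of the list. Its levels were 36.4, 25.1, 19.9, 25.8 and 28.9 CPM in Rec-ACBP livers, against 20.7, 15.95, 12.8, 19 and 17.6 CPM in PBS livers. Under restraint they were 89.1, 17.4, 38.0, 23.2 and 65.2 CPM in Rec-ACBP+CRS livers, against 13.1, 23.6, 29.01, 20.2 and 27.5 CPM in CRS livers. Unrestrained livers overlapped only between 19.9 and 20.7 CPM, and the log2 fold change over both strata was 0.85 ± 0.23 (edgeR adjusted p = 0.268). DESeq2 called Creld2, with an adjusted p of 0.0249.

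The 11 genes with small p-values also held other chaperones, oxidoreductases and degradation factors. The chaperones and co-chaperones included Manf (90.5 ± 52.0 CPM with ACBP and 56.0 ± 20.5 CPM with PBS, log2 fold change 0.71), Sdf2l1 (30.5 ± 19.1 CPM with ACBP and 19.8 ± 10.2 CPM with PBS, 0.69), Dnajb11 (61.6 ± 18.9 CPM with ACBP and 46.2 ± 11.9 CPM with PBS, 0.43) and Hsp90b1 (385 ± 60.7 CPM with ACBP and 335 ± 50.8 CPM with PBS, 0.20). The oxidoreductases Pdia4 and Pdia3 had log2 fold changes of 0.45 and 0.34, the calcium-binding chaperone Calr 0.26, Hyou1 0.53 and the mannosidase-like degradation factor Edem1 0.15. Xbp1, the transcription factor of the IRE1 branch, averaged 141 ± 52.5 CPM with ACBP and 136 ± 24.9 CPM with PBS (0.05 ± 0.16, edgeR adjusted p = 0.915), and its sign turned without Rec-ACBP+CRS replicate 1 (-0.07). Spliced Xbp1 was not measured.

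Most of the list was higher in both strata. Its median log2 fold change was 0.27 in restrained mice, where Rec-ACBP+CRS is set against CRS, and 0.36 in unrestrained mice, where Rec-ACBP is set against PBS; these 2 comparisons share no library. With each stratum fitted alone, 2 of 22 genes were higher at an unadjusted p under 0.05 in restrained mice (2.37% of all genes) and 10 of 22 in unrestrained mice (4.56%). Leaving out each library in turn gave medians of 0.21 to 0.39 and 7 to 14 genes at an unadjusted p under 0.05, the lowest of both without Rec-ACBP+CRS replicate 1. Without the 6 muscle-rich or brain-rich libraries the median was 0.37, 21 of 22 genes were higher and 11 had an unadjusted p under 0.05 (3.82% of all genes in that direction).

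**Figure D3:**
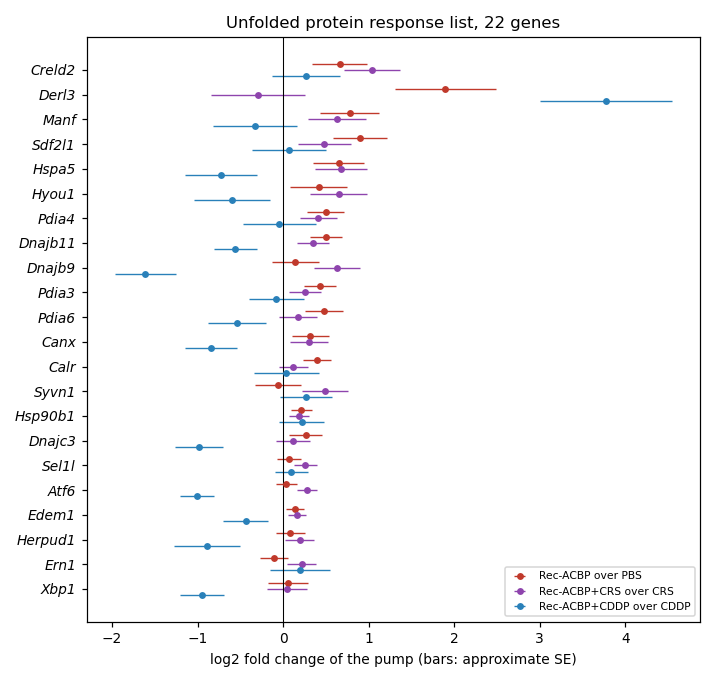
Log2 fold change of the ACBP pump with its approximate SE (x axis) for the 22 genes of the unfolded protein response list (y axis), in unrestrained mice, restrained mice and cisplatin mice. The unrestrained and restrained values lie mostly right of 0 (medians 0.36 and 0.27), while the cisplatin values scatter to both sides (median -0.38).

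The promoters of Hspa5, Creld2 and Hsp90b1 are shown because these genes carry the ER stress response element (ERSE), the sequence bound by ATF6 and NF-Y, close to their start. Each line is the 250 bases before the start of the gene in RefSeq on GRCm38.p6, printed 5′ to 3′ on the gene's strand, with matches to the ERSE letters in capitals: CCAAT, then 9 bases of any kind, then CCACG, searched on both strands.
Hspa5 (chr2:34771840-34772089, plus strand): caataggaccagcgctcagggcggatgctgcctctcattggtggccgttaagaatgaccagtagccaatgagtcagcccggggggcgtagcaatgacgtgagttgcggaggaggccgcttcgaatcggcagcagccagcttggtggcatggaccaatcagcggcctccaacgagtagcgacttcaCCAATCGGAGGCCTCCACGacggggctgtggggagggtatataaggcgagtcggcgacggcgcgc
Creld2 (chr15:88819396-88819645, plus strand): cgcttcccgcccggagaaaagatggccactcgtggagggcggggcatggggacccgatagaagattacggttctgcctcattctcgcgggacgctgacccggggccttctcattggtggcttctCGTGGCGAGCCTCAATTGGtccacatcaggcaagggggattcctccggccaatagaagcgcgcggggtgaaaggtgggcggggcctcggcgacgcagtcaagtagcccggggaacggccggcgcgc
Hsp90b1 (chr10:86705445-86705694, minus strand): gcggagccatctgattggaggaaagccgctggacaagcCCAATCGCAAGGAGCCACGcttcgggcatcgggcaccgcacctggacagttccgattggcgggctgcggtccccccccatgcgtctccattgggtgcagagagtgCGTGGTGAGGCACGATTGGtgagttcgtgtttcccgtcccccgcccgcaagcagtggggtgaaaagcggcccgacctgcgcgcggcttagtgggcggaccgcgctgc

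The capitals begin 65 bases before the start in Hspa5, 126 bases in Creld2 and, for the farther of the pair of matches, 212 bases in Hsp90b1. Over windows from 250 bases before to 50 bases after the start, the ERSE letters occurred in 9 of the 19 listed genes with a window (47.4%), against 37 of 27025 genes (0.137%). A second form, ATTGG and CCACG with 1 base of any kind between them, occurred in 2 of the 19 (Dnajb11 and Herpud1), against 12 of all genes (0.0444%). All 9 tested list genes with ERSE letters were higher with ACBP (median log2 fold change 0.31). So was every other gene of the list, so this direction tells nothing about the letters. Of 11 tested genes outside the list that hold the same letters, 4 were higher and 7 lower (median -0.11). The 1 gene with an unadjusted p under 0.05 among those 11 was Acnat2, an acyl-CoA amino acid transferase (46.6 CPM with ACBP and 33.3 CPM with PBS, log2 fold change 0.48, edgeR adjusted p = 0.344). A match describes letters in a window and is no measure of binding.

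Genes that are higher in male than in female mouse liver formed another one-sided group, in mice that were all female. In mice this set follows the pulsatile growth hormone secretion of males through STAT5B. Of 22 tested genes, 21 were higher with ACBP, 8 (36.4%) at an unadjusted p under 0.05 where 5.61% of all genes were that and higher, and the median log2 fold change was 0.34. This list too was written with earlier results known.

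Serpina1e belongs to the multigene family of alpha-1-antitrypsin, so its reads may be split with close copies. It stood at 76.8, 132, 641, 96.3 and 253 CPM in Rec-ACBP livers, against 5.67, 68.6, 17.9, 65.3 and 26.02 CPM in PBS livers. Under restraint it stood at 654, 1182, 351, 194 and 913 CPM in Rec-ACBP+CRS livers, against 85.0, 382, 550, 205 and 238 CPM in CRS livers. Unrestrained groups did not overlap and restrained groups did; the pooled log2 fold change was 1.94 ± 0.50 (edgeR adjusted p = 0.261; DESeq2 adjusted p = 0.0267).

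Selenbp2 averaged 28.8 ± 10.8 CPM in Rec-ACBP livers and 12.6 ± 1.41 CPM in PBS livers, and 64.5 ± 67.0 CPM in Rec-ACBP+CRS livers and 29.8 ± 12.3 CPM in CRS livers (SD, n = 5 each). Its restrained mean rested on 1 Rec-ACBP+CRS library at 184 CPM, beside 26.9 to 43.0 CPM in the other 4. Slco1a1, an organic anion transporter, averaged 71.8 ± 53.2 CPM with ACBP and 38.0 ± 35.1 CPM with PBS (log2 fold change 1.04 ± 0.28, edgeR adjusted p = 0.268). The fatty acid elongase Elovl3 averaged 3.67 ± 1.89 CPM with ACBP and 1.51 ± 1.04 CPM with PBS (1.28). Cyp4a12a, a male-specific cytochrome, was at 0 in all 5 PBS livers and at 0.06 to 0.643 CPM in Rec-ACBP livers, levels of a few reads. Cyp2d9 was the 1 gene on the other side of 0 (-0.04 ± 0.19, edgeR adjusted p = 0.951).

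Female-high genes did not mirror this: 13 of 27 were higher and 14 lower, with a median of -0.08. Cux2, the transcription factor that represses male genes in female mouse liver, averaged 115 ± 65.4 CPM with ACBP and 210 ± 85.6 CPM with PBS (-0.85 ± 0.35, edgeR adjusted p = 0.376), while the female-high Cyp2c40 and Cyp2c69 were higher with ACBP, at log2 fold changes of 0.45 and 0.69. Without the 6 muscle-rich or brain-rich libraries the male-high median was 0.55 with 12 genes higher at an unadjusted p under 0.05 (3.82% of all genes in that direction). The STAT5 letters, TTC and GAA with 3 bases of any kind between them, occurred in 1 of 16 promoter windows of the male-high list (6.25%), against 9.55% of all windows.

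**Figure D4:**
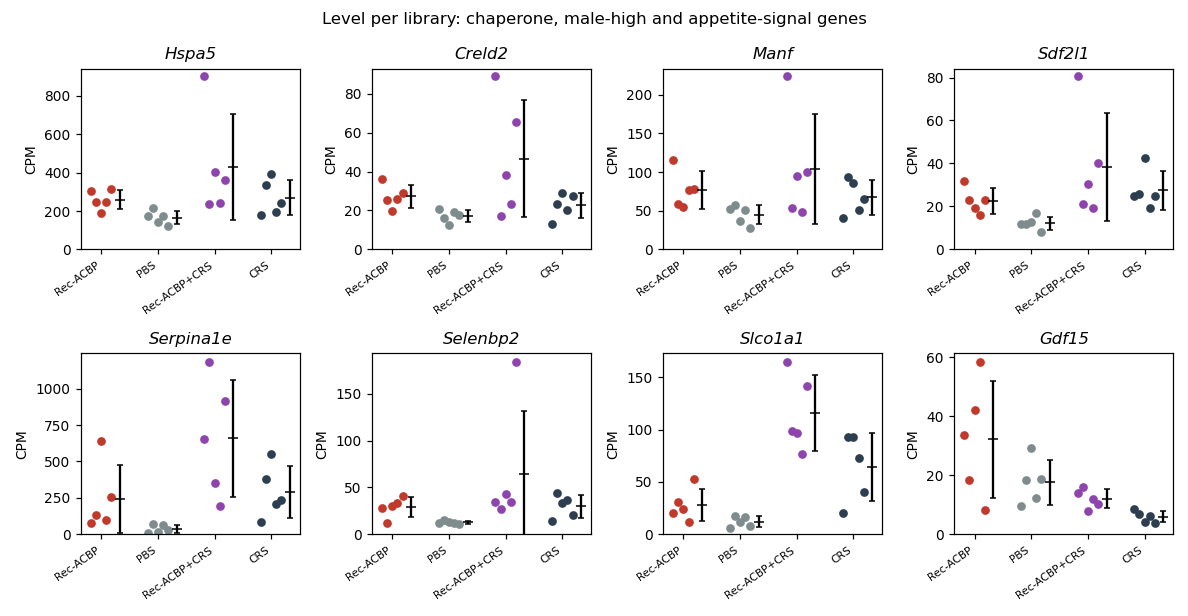
CPM per library (points, linear axes from 0) of 4 chaperone genes (upper row), 3 male-high genes and Gdf15 (lower row), by group, with mean and SD of the 5 libraries. A single Rec-ACBP+CRS library is at 903 CPM for Hspa5 and another at 184 CPM for Selenbp2, apart from the rest of their group.

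Lists of lipid metabolism had medians on both sides of 0. In the cholesterol synthesis and uptake list 21 of 25 genes were higher with ACBP (median log2 fold change 0.28), 3 of them (12%) at an unadjusted p under 0.05, beside 5.61% over all genes in that direction. That count was 2 to 10 with 1 library left out, the highest without CRS replicate 3. Genes of fatty acid and triglyceride synthesis were higher in 15 of 24 (median 0.12, and -0.04 without the 6 muscle-rich or brain-rich libraries). Genes of the PPARgamma and lipid droplet list were higher in 8 of 20 (median -0.08), in 14 of 20 in restrained mice and in 6 of 20 in unrestrained mice; the median was 0.18 without PBS replicate 2 and 0.09 without the 6 libraries. Hmgcs1, which makes the substrate of HMG-CoA reductase, averaged 705 ± 276 CPM with ACBP and 448 ± 180 CPM with PBS (0.65 ± 0.24, edgeR adjusted p = 0.321). Cyp51 and Dhcr7, later enzymes of the pathway, had values of 0.56 and 0.39 on the log2 scale, and Abcg5 and Abcg8, the sterol exporters of the canalicular membrane, -0.39 and -0.34.

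Plin2 of that list, the coat protein of hepatic lipid droplets, averaged 232 ± 111 CPM with ACBP and 148 ± 37.1 CPM with PBS (log2 fold change 0.63 ± 0.22, edgeR adjusted p = 0.314). Its log2 fold change was 0.98 in restrained and 0.28 in unrestrained mice, and the interaction did not pass. Elovl5, an elongase of polyunsaturated fatty acids, averaged 324 ± 59.6 CPM with ACBP and 239 ± 39.6 CPM with PBS (0.43 ± 0.11, edgeR adjusted p = 0.261; DESeq2 adjusted p = 0.0249). Srebf1, the master regulator of fatty acid synthesis, was on the other side, at 295 ± 80.9 CPM with ACBP and 409 ± 178 CPM with PBS (-0.45). Of 36 fatty acid oxidation genes 30 were higher, 2 of them (Cpt2, 0.31, and Crot, 0.37) at an unadjusted p under 0.05, a share of 5.56% beside 5.61% over all genes. That count was 8 without Rec-ACBP replicate 4 and 1 without CRS replicate 1.

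Genes of the glucocorticoid, circadian clock and gluconeogenesis lists were more often lower. Among glucocorticoid receptor targets 6 were higher and 18 lower (median -0.17), among circadian clock genes 7 and 13 (median -0.24) and among gluconeogenesis genes 6 and 11 (median -0.17). In that order, 3 of 24 (12.5%), 3 of 20 (15%) and 2 of 17 (11.8%) were lower at an unadjusted p under 0.05. Over all genes 5.79% were that and lower. Log2 fold changes of the glucocorticoid receptor targets ran from -0.80 to 0.95. Tat, the tyrosine aminotransferase induced by glucocorticoids, averaged 945 ± 307 CPM with ACBP and 1270 ± 494 CPM with PBS (-0.43 ± 0.18, edgeR adjusted p = 0.39). Sgk1, Zbtb16 and the insulin receptor substrate Irs2 had log2 fold changes of -0.50, -0.73 and -0.60. Plk3, a stress-responsive kinase, belongs to the p53 target list and to none of the lists of this paragraph. It averaged 95.7 ± 37.4 CPM with ACBP and 166 ± 64.1 CPM with PBS (-0.84 ± 0.22, edgeR adjusted p = 0.268; DESeq2 adjusted p = 0.0243). The hour at which livers were taken is not given in the labels.

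Since ACBP is known as an appetite signal, 21 genes by which the liver acts on appetite and energy balance were also read; 14 were higher and 7 lower with a median of 0.06. Gdf15, a hormone that curbs appetite through the hindbrain, had 33.7, 18.3, 42.0, 58.5 and 8.17 CPM in Rec-ACBP livers, against 9.58, 18.3, 29.2, 12.2 and 18.6 CPM in PBS livers. In restrained mice it had 14.1, 16.03, 7.77, 12 and 10.2 CPM in Rec-ACBP+CRS livers, against 8.55, 6.81, 4.13, 6.32 and 3.94 CPM in CRS livers. The unrestrained groups overlapped, the restrained groups only between 7.77 and 8.55 CPM, and the pooled log2 fold change was 0.94 ± 0.27 (edgeR adjusted p = 0.268). Lepr, the leptin receptor, averaged 5.85 ± 2.58 CPM with ACBP and 9.02 ± 3.20 CPM with PBS (-0.61 ± 0.25, edgeR adjusted p = 0.378).

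Several housekeeping groups leaned one way by little. All 35 cytosolic ribosomal protein genes were higher with ACBP, 8 (22.9%) at an unadjusted p under 0.05 (5.61% over all genes), with a median log2 fold change of 0.18; Rps15 averaged 532 ± 89.4 CPM with ACBP and 433 ± 38.4 CPM with PBS. The count of 8 ranged from 2, without PBS replicate 1 or Rec-ACBP replicate 2, to 18, without Rec-ACBP+CRS replicate 5. All 27 proteasome genes were higher (median 0.12), but only Psmd4 had a small p. Without the 6 muscle-rich or brain-rich libraries 33 of 35 and 25 of 27 were higher, and in both lists 0 had an unadjusted p under 0.05 (3.82% over all genes in that direction). Of 12 genes of the mitochondrial genome 11 were lower (median -0.26, 0 with a small p), and their share of the reads was 8.96% ± 3.07 with ACBP and 10.96% ± 3.003 with PBS (SD, n = 10 each; exact permutation test within strata, 2-sided p = 0.175, adjusted p = 0.478). That share is a part of the library total, and its part in the values of the other groups was not tested. Autophagy and lysosome genes, named because ACBP leaves cells by autophagy, were higher in 25 of 33, 6 of them (18.2%) at an unadjusted p under 0.05, beside 5.61% over all genes. That count was 2 without PBS replicate 5, 9 without PBS replicate 2 or 3, and 2 without the 6 libraries. The cargo receptor Sqstm1 averaged 322 ± 58.3 CPM with ACBP and 269 ± 45.1 CPM with PBS (0.27) and the protease Ctsd 244 ± 65.4 and 200 ± 37.0 CPM in the ACBP and PBS arms (0.29).

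**Figure D5:**
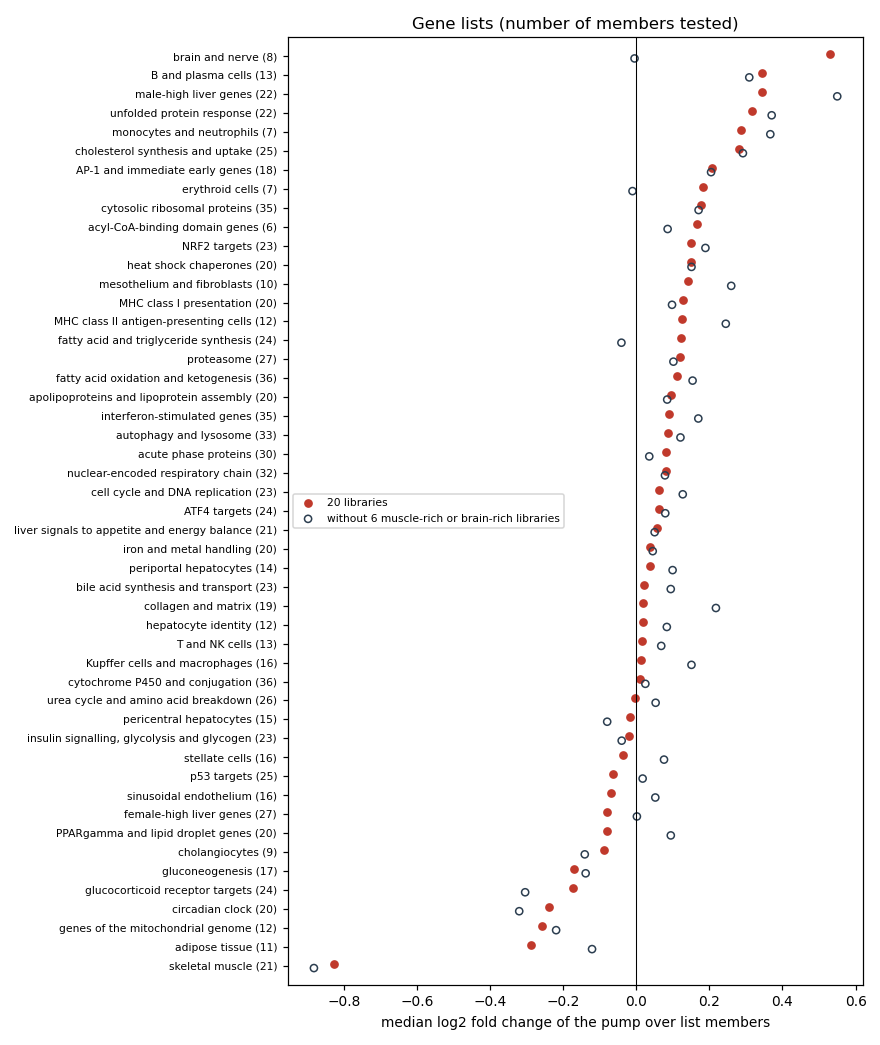
Median log2 fold change of the ACBP pump (x axis) over the tested members of each gene list with at least 5 tested genes (y axis, number tested in parentheses), with all 20 libraries and without the 6 muscle-rich or brain-rich ones. The unfolded protein response list is at 0.32 and 0.37, the male-high list at 0.34 and 0.55, and the brain list at 0.53 and -0.0047.

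The pump effect was then set against restraint. In a fit with an interaction term, 1 of 15762 genes (0.00634%) had a pump effect that differed between restrained and unrestrained mice, and 655 (4.16%) had an unadjusted p under 0.05. The pump effect was higher in restrained mice in 289 of these (1.83% of the genes tested) and lower in 366 (2.32%). That gene was Saa2 (chromosome 7, 46751790 to 46754313), a serum amyloid A gene of the acute phase response with a near-identical neighbour, Saa1. In restrained mice it stood at 123, 88.2, 7.46, 30.7 and 26.9 CPM in Rec-ACBP+CRS livers, against 968, 592, 1287, 397 and 1570 CPM in CRS livers. Without restraint it stood at 6.61, 36.8, 20.5, 12.9 and 12.7 CPM in Rec-ACBP livers, against 6.53, 4.42, 9.18, 5.71 and 8.07 CPM in PBS livers. The restrained groups did not overlap. The pump effect was -4.12 ± 0.60 on the log2 scale in restrained mice and 1.40 ± 0.56 in unrestrained mice, a difference of -5.52 (edgeR interaction, adjusted p = 0.0171). The call was lost without any of 4 PBS libraries (replicates 1, 2, 4 and 5) or of Rec-ACBP+CRS replicates 4 and 5, with adjusted p-values of 0.051 to 0.0688, and without the 6 muscle-rich or brain-rich libraries (-4.45, adjusted p = 0.247). Saa1 had pump effects of -2.83 in restrained and 1.69 in unrestrained mice, and its difference of -4.52 did not pass (adjusted p = 0.297). Pooled over both strata neither gene had a small p (Saa2 -1.45, edgeR adjusted p = 0.563; Saa1 -0.62, edgeR adjusted p = 0.786).

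Within each stratum of the fit of 4 groups, edgeR called 1 gene in restrained mice (0.00634%), Saa2, and 2 in unrestrained mice (0.0127%), Cotl1 and Tnfrsf14, named after their values were seen. Cotl1, an actin-binding protein, stood at 19.8, 18.6, 13.8, 22.7 and 22.5 CPM in Rec-ACBP livers, against 10.3, 8.79, 9.67, 11.5 and 11.4 CPM in PBS livers, with no overlap (log2 fold change 0.91 ± 0.13, adjusted p = 0.01002). In restrained mice it ranged from 16.2 to 21.7 CPM in Rec-ACBP+CRS livers and from 16.7 to 19.5 CPM in CRS livers. Tnfrsf14, a receptor of the tumour necrosis factor family, stood at 8.09, 3.40, 0.239, 8.63 and 3.18 CPM in Rec-ACBP livers, against 0.488, 0.524, 0.739, 0.248 and 0.25 CPM in PBS livers, and 1 Rec-ACBP library lay within the PBS range (3.36 ± 0.55, adjusted p = 0.0411). In restrained mice Tnfrsf14 ranged from 6.18 to 10.4 CPM in Rec-ACBP+CRS livers and from 7.88 to 11.9 CPM in CRS livers. For neither gene did the difference of the pump effect between the strata pass in the edgeR interaction test (adjusted p = 0.514 for Cotl1 and 0.243 for Tnfrsf14). This does not show that the effect was alike in both strata. With each stratum fitted alone edgeR called 0 genes in either (adjusted p = 0.296 for Saa2 and 0.289 for both others). In these fits 834 of 14880 genes in restrained mice and 1475 of 14831 in unrestrained mice had an unadjusted p under 0.05. An even spread of p-values would give 5%. Without the 6 muscle-rich or brain-rich libraries the adjusted p was 0.119 for Saa2 and 0.713 for both others. The Saa2 call was also lost without CRS replicate 5 or Rec-ACBP+CRS replicate 4 or 5 (adjusted p = 0.0509 to 0.123), that of Cotl1 without PBS replicate 2 or 3 or Rec-ACBP replicate 4 or 5 (0.0532 to 0.0615), and that of Tnfrsf14 without any library but Rec-ACBP replicate 3 (0.0532 to 0.195).

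Across the 15762 genes, the pump effects in unrestrained and restrained mice had the same sign in 9420 (59.8%), with Pearson's r of 0.036 and Spearman's rho of 0.18. These are descriptions across genes, which are not independent replicates, and the 2 effects share no library.

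Mice given cisplatin showed another pattern. There, Rec-ACBP+CDDP against CDDP, 2217 of 14779 genes (15%) passed in edgeR at an adjusted p under 0.05, 974 higher and 1243 lower. This count depended on single libraries: it was 1256 without CDDP replicate 2, 1293 without CDDP replicate 4, 1447 without Rec-ACBP+CDDP replicate 3 and 879 without Rec-ACBP+CDDP replicate 4. In a fit of all 30 libraries, 4631 of 16304 genes (28.4%) had a pump effect in cisplatin mice that differed from the mean of the 2 others. That fit gives each gene a single dispersion for all groups. The cisplatin libraries spread more among themselves, so p-values of this difference may be too small. The sign of the pump effect in mice without cisplatin was shared with cisplatin mice by 5789 of 14659 genes (39.5%; Pearson's r -0.17, Spearman's rho -0.25), and by 547 of the 1750 genes with an unadjusted p under 0.05 in the pooled comparison (31.3%).

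The difference was called for part of the leading genes named above, beside 28.4% of all genes tested. Those genes were chosen by their pooled values, which the difference uses again, so their calls are no independent support. Apol9a rose with ACBP in cisplatin mice (84.6 ± 32.0 CPM in Rec-ACBP+CDDP livers and 20.9 ± 7.61 CPM in CDDP livers, log2 fold change 2.01, adjusted p = 0.00572), and its effect there was higher than without cisplatin (difference 1.56, adjusted p = 0.000181). Tmed3 fell in cisplatin mice (19.9 ± 8.20 and 40.4 ± 11.8 CPM in Rec-ACBP+CDDP and CDDP livers, -1.02, adjusted p = 0.0389), and its difference was -1.71. Bmf rose there (9.79 ± 4.20 CPM in Rec-ACBP+CDDP livers and 4.49 ± 1.07 CPM in CDDP livers, 1.12, adjusted p = 0.0343), with a difference of 1.89. Pgrmc2 stood at 46.9 ± 13.4 CPM in Rec-ACBP+CDDP livers and 47.7 ± 8.96 CPM in CDDP livers (-0.02, adjusted p = 0.956). In the unfolded protein response list 4 of 22 genes fell and 1, Derl3, rose in cisplatin mice (median -0.38). Over all genes there, 8.41% were called lower and 974 of 14779 higher. The difference from the other mice was called in 11 of 22 genes of the list (28.4% of all genes), 10 of them lower in cisplatin mice. Of the 35 ribosomal protein genes, 25 fell in cisplatin mice, where 8.41% of all genes did, and 34 differed. The mitochondrial share of reads did not overlap there, at 5.43% to 12.64% in Rec-ACBP+CDDP livers and 2.74% to 3.81% in CDDP livers. All 12 genes of the mitochondrial genome were higher with ACBP, 8 of them called, where 974 of 14779 genes were called higher. The part of the mitochondrial share in the cisplatin values was not tested.

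Markers of resident and immune cells of the liver were read as summed levels and gene by gene. In bulk tissue, fewer cells of a type and less RNA per cell cannot be told apart. Summed levels of 16 Kupffer cell and macrophage genes ranged from 383 to 641 CPM with ACBP and from 470 to 646 CPM with PBS; Marco, a scavenger receptor, averaged 12.2 ± 3.79 and 7.98 ± 2.26 CPM in the ACBP and PBS arms (log2 fold change 0.61, edgeR adjusted p = 0.312) and the macrophage marker Cd68 7.82 ± 1.99 and 10.4 ± 2.51 CPM (-0.41, edgeR adjusted p = 0.314). Genes of B and plasma cells were higher in 10 of 13 (median 0.34), among them Igkc, Cd79a and Cd79b at 0.40, 0.54 and 0.47. Of the 13, 3 (23.1%) were higher at an unadjusted p under 0.05, beside 5.61% over all genes in that direction. That count was 0 without Rec-ACBP replicate 3 and 1 without the 6 muscle-rich or brain-rich libraries. Interferon-stimulated genes were higher in 23 of 35 (median 0.09). Of the 35, 4 (11.4%) were higher at an unadjusted p under 0.05, including Ifi27 and Bst2, beside 5.61% over all genes in that direction. MHC class I presentation genes were higher in 15 of 20 (median 0.13). The 21 skeletal muscle genes were all lower with ACBP in the pooled fit (median -0.83, 0 with a small p), with a median of 0.32 in restrained and -2.12 in unrestrained mice. That median was 0.89 without PBS replicate 2, the library at 12435 CPM, and -1.89 without Rec-ACBP replicate 2, and the median library of their summed level was at 202 CPM with ACBP and 38.1 CPM with PBS. Their part in the results above was not tested beyond the values without the 6 libraries.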

How the data were processed

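Raw counts per gene, deposited by the authors as 1 table of 48440 genes and 30 libraries without normalization, were the only measurements used. The submitters' processing notes name HISAT2 2.2.1 and HTSeq 2.0.3 as tools and mm10 as the build. Per the labels, strand-specific mRNA libraries were made from 1.5 µg of total RNA. For the annotation release and the strand setting of the counting, no statement was given in the sources used here. Library sizes and tests left out 5 summary lines of unassigned reads; reads on genes made up 34.7% to 39.1% of the reads in the table. Gene symbols are those of the deposited table. Coordinates came from GENCODE vM21, which matched 99.2% of the identifiers.

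Groups followed the treatment labels. Within groups, any pair of libraries had a chi-square of at least 22.9 per degree of freedom, so no library was a copy of another of its group. The count test was edgeR 4.0.16, run in R 4.3.3 (TMM, filterByExpr, quasi-likelihood F test; 17 residual degrees of freedom), applied to a model of pump plus restraint, with Benjamini-Hochberg adjustment over all genes kept and a threshold of 0.05. An approximate SE was taken as the size of the log2 fold change over the root of F. An interaction model and a model of 4 groups over the same 20 libraries, a fit of the 10 cisplatin libraries and a fit of all 30 gave the other comparisons. The test was checked on counts simulated without a restraint effect, with 50 genes changed at each fold. At an adjusted p under 0.05 it recovered 0% of the genes changed by a fold of 1.2 and 50% at 1.5. It recovered 86% at a fold of 2 and 100% at 4, so small changes can be missed. Read shares were compared by exact permutation of pump labels within restraint strata.

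Dbi and, since no gene was called, the 10 genes in each direction with the smallest p, a symbol that is not provisional and at least 1 CPM in 1 arm were named; members of described lists could be named too. The members of this comparison and the 51 lists (1071 entries, 993 tested) were chosen with earlier results of these data known. Alternatives were RLE normalization, other count filters, glmTreat, DESeq2 1.42.0 (43353 genes had no adjusted p), limma voom (limma 3.58.1), other covariates and fits, each stratum alone and leaving out each library. The 6 libraries left out together had a muscle score (mean log2 CPM, prior count 2) over 5, or were Rec-ACBP replicate 4, which held brain transcripts. For the cisplatin comparisons, the calls within a stratum, the counts of unadjusted p, the list medians and the mitochondrial share, alternatives were added after seeing the data. Promoter windows of 300 bases are from RefSeq on GRCm38.p6. Tables and figures were made with Python 3.11.15, pandas 2.3.3, numpy 2.4.6 and matplotlib 3.10.9.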

Additional observations from a re-analysis of the deposited data

Results flagged for a closer look

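Among 416 gene-by-group sets of 5 libraries, 24 (5.77%) held a library separated from the other 4 by more than Dixon's 95% limit; chance gives about 1 in 20. Of these, 17 were libraries of the ACBP arm and 7 of the PBS arm. Rec-ACBP+CRS replicate 1 accounted for 5: Hspa5 at 903 CPM (the other 4 at 238 to 401), Crot at 515 CPM (232 to 304), Cyp4a12a at 4.12 CPM (0.06 to 1.17), Cux2 at 18.1 CPM (113 to 138) and Srebf1 at 137 CPM (261 to 299). Rec-ACBP replicate 2, rich in muscle transcripts, accounted for 4: Map3k6 at 4.75 CPM, Ctsd at 260 CPM, Psmd4 at 213 CPM and Saa1 at 95.8 CPM. In the other ACBP libraries, Rec-ACBP replicate 3 stood apart for Cd74 (95.0 CPM) and replicate 4 for Jun (74.7 CPM, the other 4 at 19.5 to 22.99). Rec-ACBP+CRS replicate 4 stood apart for Cd79b (2.88 CPM), Dhcr7 (56.5 CPM) and Psmd4 (197 CPM), and replicate 5 for Selenbp2 (184 CPM), Acbd6 (37.0 CPM) and Ei24 (121 CPM). In the PBS arm, PBS replicate 2 stood apart for Tmed3 (13.3 CPM) and Map3k6 (8.44 CPM), PBS replicate 4 for Klrg2 (2.86 CPM) and A1bg (129.8 CPM) and PBS replicate 1 for Cd74 (36.8 CPM). CRS replicate 1 did so for Marco (10.7 CPM) and CRS replicate 3 for Sdf2l1 (42.8 CPM).

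Pump effects that differed between conditions, by edgeR with an adjusted p under 0.05, were these. Saa2 differed between restrained and unrestrained mice by -5.52 on the log2 scale (adjusted p = 0.0171). Of the 21 named genes, 9 differed between cisplatin mice and the other mice. The difference, cisplatin minus other, was 1.56 for Apol9a, 2.004 for Klrg2, 1.89 for Bmf, 1.28 for Pias3, 1.13 for Qtrtd1 and 0.69 for Tia1, and it was -1.71 for Tmed3, -0.55 for Ppp2r4 and -2.66 for Map3k6. Over all genes tested 28.4% differed in this way. The named genes other than Dbi were chosen by their pooled values, which this difference uses again.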

How the results depend on the processing

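The count of genes changed by the pump was 0 in 32 of 33 alternatives and 76 with DESeq2. Counts at an unadjusted p under 0.05, main value 1798 of 15762 genes, were 1350 to 2391 with 1 library left out. Without a filter on low counts the count was 2956 of 28590 genes, and against a fold of 1.2 it was 342. It was 894 in 1 fit of all 30 libraries and 834 of 14880 genes in restrained mice only. The 21 named genes kept their sign in all 681 values compared. Signs turned for Xbp1 (-0.0294 with voom, -0.0715 to 0.130 with 1 library left out, the lowest without Rec-ACBP+CRS replicate 1), Cyp2d9 (0.0502 without the restraint covariate, 0.22 in restrained mice, -0.105 to 0.0717 with 1 library left out, above 0 without PBS replicate 3, Rec-ACBP replicate 3 or 4 or Rec-ACBP+CRS replicate 2), Eci2 (-0.0077 without the 6 muscle-rich or brain-rich libraries), Saa1 (1.69) and Saa2 (1.40) in unrestrained mice, and Acbd3 (0.0474 in restrained mice). Genes with a restraint-dependent pump effect numbered 0 to 2 with 1 library left out and 0 without the 6 libraries, and the Saa2 difference ranged from -6.06 to -5.09 and was -4.45 without the 6. In the fit of 4 groups, genes called numbered 0 to 1 in restrained mice (1 with all libraries) and 0 to 2 in unrestrained mice (2 with all libraries) with 1 library left out, and 0 in both with the stratum fitted alone or without the 6 libraries. The count in cisplatin mice ranged from 879 to 2721. The mitochondrial share differed by -1.13 to -2.89 percentage points, and without Rec-ACBP+CRS replicate 5 the exact permutation p was 0.0103. The causes were not tested. No paired analysis was possible because the labels number the libraries through the whole series and give no replicate number shared between groups. Depth limits what can be said of genes near 1 CPM, such as Klrg2 and Cyp4a12a.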

Other observations

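Some gene groups not yet described are given as values for the ACBP arm against the PBS arm; none of their members passed the edgeR test at an adjusted p under 0.05. Heat shock chaperones, which fold proteins in the cytosol, were higher in 17 of 20 genes (median log2 fold change 0.15, 4 at an unadjusted p under 0.05), among them Chordc1 (25.5 ± 6.03 CPM with ACBP and 19.9 ± 2.61 CPM with PBS). Those 4 made up 20% of the list, beside 5.61% over all genes in that direction. That count was 1 without Rec-ACBP+CRS replicate 3 and 5 without Rec-ACBP replicate 3. It was 0 without the 6 muscle-rich or brain-rich libraries, beside 3.82% over all genes in that direction. Immediate early genes were higher in 11 of 18 (median 0.21), with Egr1 at 82.4 ± 88.0 CPM with ACBP and 33 ± 19.3 CPM with PBS and Jund at 109 ± 23.6 and 84.1 ± 11.8 CPM in the ACBP and PBS arms. Their median was 0.0013 in restrained mice and 0.25 in unrestrained mice. It was 0.086 without Rec-ACBP replicate 4, the lowest with 1 library left out, and 0.20 without the 6 muscle-rich or brain-rich libraries. Of the ATF4 targets, the amino acid stress branch, 15 of 24 were higher (median 0.06), including Atf5 at 0.47 on the log2 scale.

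NRF2 targets, the antioxidant set, were higher in 15 of 23 (median 0.15), whereas Nfe2l2, which encodes NRF2, averaged 101 ± 16.4 CPM with ACBP and 137 ± 39.7 CPM with PBS (log2 fold change -0.42, edgeR adjusted p = 0.293). Ei24, a p53-responsive protein of the endoplasmic reticulum, averaged 168 ± 25.4 CPM with ACBP and 132 ± 15.2 CPM with PBS (0.35; DESeq2 adjusted p = 0.0302), while the p53 target list as a whole held 10 higher and 15 lower genes (median -0.06). Plk3, described above, had the lowest value of that list (-0.84). Acute phase genes had medians of -0.11 in restrained and 0.33 in unrestrained mice, the same order of signs as Saa2; that difference was not tested for the list.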
